A study of Mus musculus with 30 samples.

Results

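The core circadian clock was followed in mouse hearts through 10 genes of the 55487 in the deposited count table: the activators Arntl (Bmal1 in newer annotation), Clock and Npas2, the repressors Per1, Per2, Per3, Cry1, Cry2 and Ciart, and the rhythmic output gene Noct. The rule takes each row whose symbol is one of these 10 names, and all 10 passed the filter on low counts in both cohorts. The list was chosen by earlier results on the same table, in which Arntl passed the test for pressure overload in saline-injected mice and Noct passed it in vector-injected mice. Differences between groups of the AAV9 cohort are therefore given as a description, without a p-value for any of the 10 genes. Calls among the 10 genes there are stated beside those over all genes, and nothing is read from them. Tests are given in the floxed cohort, whose libraries were not used in those calls, and for hearts compared within their own group.

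The clock is a loop of transcription that runs in most cells, the heart muscle cell included, with a period of about a day. ARNTL pairs with CLOCK, or with its close relative NPAS2, and the pair binds E-box sequences in promoters, those of the Per and Cry genes and Ciart among them. PER and CRY proteins and CIART hold this pair back, while the nuclear receptors REV-ERB (Nr1d1, Nr1d2) and ROR repress or activate Arntl itself. Transcripts of Arntl and Npas2 therefore peak at about the opposite time of day from those of Dbp, Per3 and Ciart. The heart clock is known for its part in daily swings of metabolism and of stress responses.

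Poly(A) RNA of 30 mouse hearts had been sequenced. Surgery was either sham or transverse aortic constriction (TAC, in which a clip on the aortic arch raises the load on the left ventricle), and hearts were frozen 8 weeks later. In the floxed cohort, mice with a floxed Cpt1a gene (FF) and mice labelled as cardiac-specific Cpt1a knockouts (KO) gave FF_sham, FF_TAC, KO_sham and KO_TAC, with 4 hearts each. The KO_TAC titles read TAC Sham, and these hearts were placed by their genotype and treatment labels and by the column names. In the AAV9 cohort, C57Bl/6 mice received either PBS (PBS_sham and PBS_TAC, 3 hearts each) or AAV9.Cpt1a (AAV_sham and AAV_TAC, 4 hearts each), a virus that delivers Cpt1a under the cardiac troponin T promoter per the series' design text. CPT1A lets mitochondria take up long-chain fatty acids. The Cre line behind the knockout, the age of the mice and the time of day at which hearts were taken are not given in the sources used here, and the clip (0.016 or 0.018 inch) is not assigned to single mice. Clock transcripts rise and fall over the day, so differences between groups or hearts cannot be told apart from differences in hour of collection. Nothing in the labels says whether mice of one group shared a litter or a day of surgery, so p-values measure the spread between these hearts.

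Total counts ran from 14839758 to 22070373 per library. Levels are CPM (counts scaled by library size, with TMM correction of the sizes within each cohort), so that levels set across the cohorts rest on separate scalings. The targeted gene Cpt1a checks the labels only in part: it was at 37.8 to 52.7 CPM in FF_sham, 48.8, 20.3, 16.2 and 34.0 in FF_TAC, 22.4, 46.2, 20.3 and 23.6 in KO_sham and 11.1 to 19.5 in KO_TAC. The library labelled KO_sham 2 thus lay inside the FF_sham range. FF_TAC 2 and 3, at 20.3 and 16.2 CPM, lay near the levels of KO hearts. Directions drawn from KO_sham and FF_TAC rest on the labels. Cpt1a levels of the AAV9 cohort are not given here, so its vector labels are not checked. In 7 libraries (FF_TAC 2 and 3, the one labelled KO_sham 2, and KO_TAC 1 to 4) summed haemoglobin transcripts were 1.40 to 51.1 CPM, against 293.9 CPM or more in the other 23. PBS_sham 3 also stood apart: its 5 cardiomyocyte markers summed to 21051 CPM, against 42048 or more in every other library, and its 5 smooth muscle markers to 2297 CPM, against 941 or less. In bulk tissue, fewer cells of a type and less RNA per cell cannot be told apart.

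Promoter windows from RefSeq (GRCm38.p6, 250 bases before to 50 after each start) were matched for 9 of the 10 genes, all but Per2. They were searched on both strands for the E-box CACGTG, the related CACGTT, the D-boxes TTATGTAA and TTATGCAA (bound by DBP, TEF, HLF and NFIL3), the REV-ERB and ROR element AGTAGGTCA, and the cAMP response element TGACGTCA. Over all 32851 windows of the table, 7.15% hold CACGTG, 4.68% CACGTT, 0.938% TTATGTAA, 0.743% TTATGCAA, 0.192% AGTAGGTCA and 1.79% TGACGTCA. Ciart has CACGTG in 3 places, Cry1 and the first of the 2 Per1 windows in 1 place each. The Per1 window also holds 1 TTATGCAA, Per3 holds TTATGTAA in 2 places, and Cry1 and Cry2 hold CACGTT in 1 place each. No motif of this search was found in the windows of Clock, Npas2 or Noct. A match is a run of letters, not a bound site. The 4 stretches below are shown because they carry most of these matches; all 4 belong to repressor genes, of which Ciart and Per3 ran opposite to Arntl between hearts of one group in both cohorts, while for Per1 and Cry1 no such relation passed. Capitals mark the motifs, each sequence is written 5′ to 3′ on the strand of its gene, and each lies before a RefSeq transcript start and stops at the first base of any annotated exon in its window. The Per1 start used here lies inside the gene interval given for Per1.
Ciart, chr3:95882252-95882478, minus strand: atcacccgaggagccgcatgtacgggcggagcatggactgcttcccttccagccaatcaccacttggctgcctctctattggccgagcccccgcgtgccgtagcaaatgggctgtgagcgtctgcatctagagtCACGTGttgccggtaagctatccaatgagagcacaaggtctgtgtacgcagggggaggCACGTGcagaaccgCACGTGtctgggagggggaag
Per1, chr11:69098699-69098947, plus strand: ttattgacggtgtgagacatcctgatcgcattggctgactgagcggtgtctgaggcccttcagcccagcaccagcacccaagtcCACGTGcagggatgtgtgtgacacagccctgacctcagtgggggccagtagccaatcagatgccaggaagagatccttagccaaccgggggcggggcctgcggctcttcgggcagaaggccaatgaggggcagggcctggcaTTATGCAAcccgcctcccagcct
Per3, chr4:151044666-151044915, minus strand: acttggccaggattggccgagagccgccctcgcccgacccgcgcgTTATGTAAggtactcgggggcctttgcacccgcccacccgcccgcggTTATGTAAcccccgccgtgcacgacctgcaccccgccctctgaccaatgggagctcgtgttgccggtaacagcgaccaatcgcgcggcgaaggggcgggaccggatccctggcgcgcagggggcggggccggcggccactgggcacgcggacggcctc
Cry1, chr10:85185065-85185304, minus strand: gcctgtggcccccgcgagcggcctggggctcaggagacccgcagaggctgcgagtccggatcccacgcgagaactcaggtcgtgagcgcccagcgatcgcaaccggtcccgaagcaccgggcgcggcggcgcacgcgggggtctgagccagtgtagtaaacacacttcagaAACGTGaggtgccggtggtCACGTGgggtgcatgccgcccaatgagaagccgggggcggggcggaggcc
Counted from these RefSeq starts, which are not always the end of the gene interval given with each gene, the Ciart E-boxes begin at −116, −58 and −44, the Per1 E-box at −166 and its D-box at −24, the Per3 D-boxes at −205 and −158, and the Cry1 E-box at −60 with the reverse of CACGTT at −79. Arntl itself has 1 REV-ERB and ROR element, 27 bases after the start of its second window, shown here with 10 bases on either side; the capitals take in the A before AGTAGGTCA.
Arntl, chr7:113207528-113207557, plus strand: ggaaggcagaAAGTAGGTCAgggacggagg

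Levels set the scale of what follows. Per kilobase of exon and averaged over all 30 libraries, Per1 stood at 13.5 CPM per kb, Noct at 7.09, Ciart at 6.95, Cry2 at 6.32, Per2 at 3.60, Per3 at 2.98, Cry1 at 2.71, Clock at 2.21, Arntl at 1.2 and Npas2 at 0.745. Npas2 and Arntl were thus the scarcest of the 10, with 23 to 174 and 20 to 459 counts per library. Clock had the narrowest range relative to its level, 21.3 to 37.8 CPM over the 30 hearts. Arntl ran from 1.21 to 22.5 CPM, an 18.5-fold range, with the library labelled KO_sham 2 at the low and KO_TAC 1 at the high end.

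**Figure D1:**
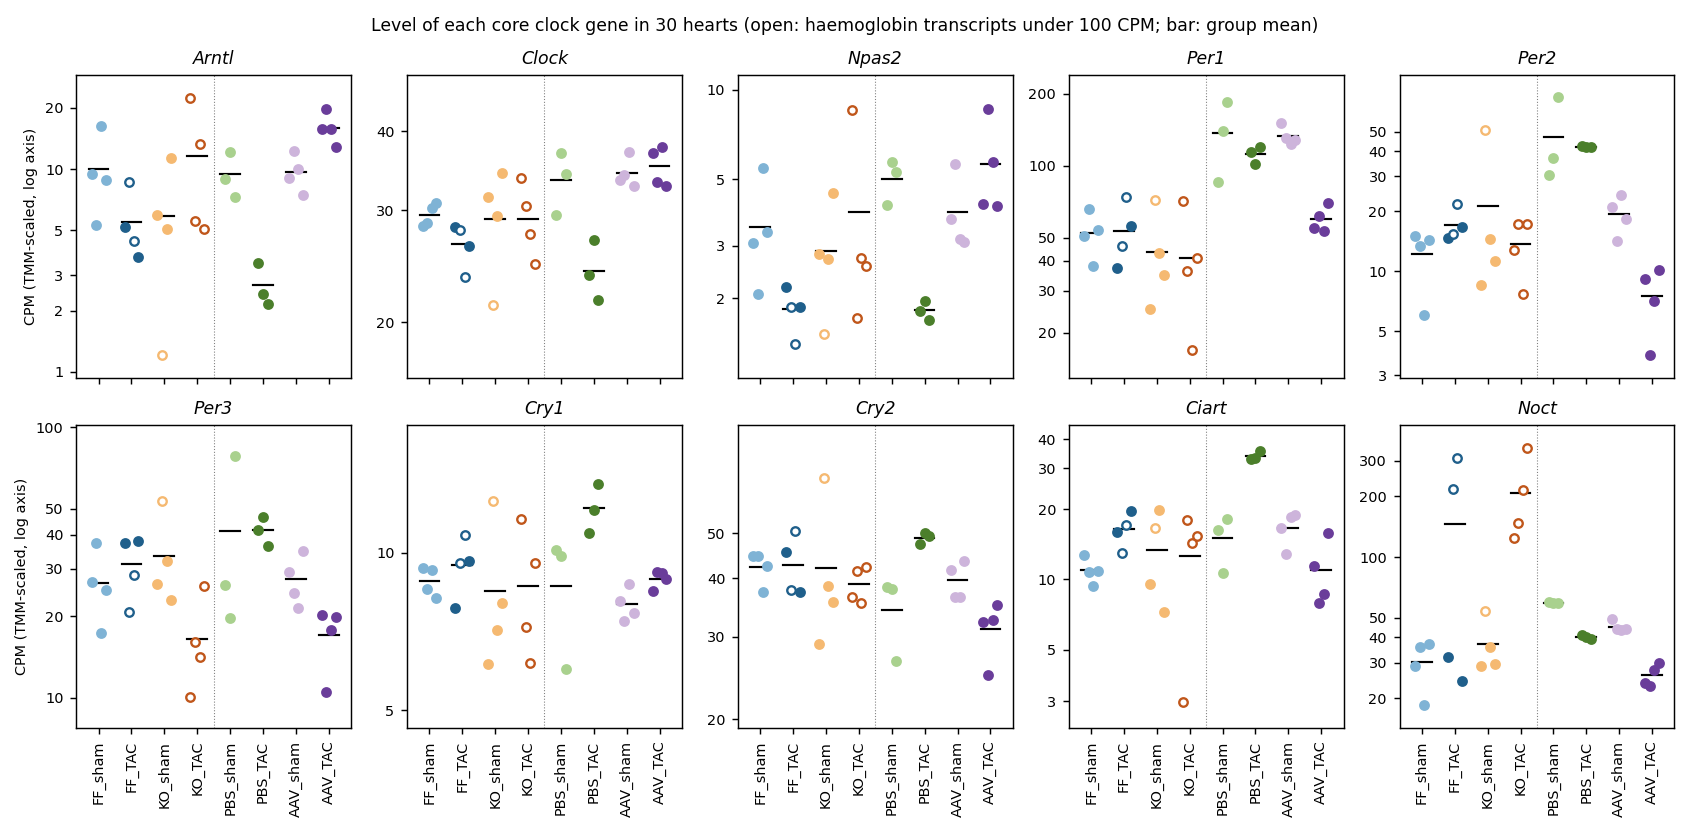
Level of each of the 10 clock genes in 30 hearts: the x axis gives the 8 groups, the y axis CPM on a log scale, a point is 1 heart, a bar the group mean, and open points are the 7 hearts with haemoglobin transcripts under 100 CPM. PBS_TAC sits low for Arntl (2.17 to 3.45 CPM) and high for Ciart (33.0 to 35.5 CPM), and Noct is at 124 CPM or more only in hearts with open points.

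Arntl (ENSMUSG00000055116, GRCm38 chr7:113207465-113314126, plus strand) encodes the activator without which the loop stops. In the AAV9 cohort it was at 8.93, 12.1 and 7.32 CPM in PBS_sham and 3.45, 2.42 and 2.17 in PBS_TAC, then 9.07, 12.2, 9.99 and 7.45 in AAV_sham and 15.7, 19.7, 15.8 and 12.8 in AAV_TAC. All 3 PBS_TAC hearts lay below every other heart of that cohort, and all 4 AAV_TAC hearts lay above every other heart of it. The log2 difference with TAC was −1.82 (SE 0.25) after PBS and 0.72 (SE 0.20) after the vector. Between the TAC groups, AAV_TAC exceeded PBS_TAC by 2.58 (SE 0.25) on the log2 scale, a fold of 5.97, while the sham groups differed by 0.037 (SE 0.22). The difference of both TAC effects was 2.54 (SE 0.32). Its counts can include reads of Gm45355, an antisense gene that overlaps 33 bases of its exons, since the strand setting of the counting is not given in the sources used here.

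In the floxed cohort Arntl spread far more within groups. It was at 9.40, 5.28, 16.3 and 8.87 CPM in FF_sham, 5.15, 8.61, 4.41 and 3.70 in FF_TAC, 5.94, 1.21, 5.04 and 11.4 in KO_sham and 22.5, 5.55, 13.2 and 5.06 in KO_TAC. Every pair of these groups overlapped. In edgeR (quasi-likelihood test, p-values adjusted over 15596 genes by Benjamini-Hochberg), the TAC difference was −0.87 (SE 0.57, adjusted p 0.559) in FF and 0.98 (SE 0.56, adjusted p 0.203) in KO hearts. KO_TAC stood 1.09 (SE 0.57, adjusted p 0.202) above FF_TAC, and the knockout-by-TAC interaction gave 1.85 (SE 0.80, adjusted p 0.344); none of these passed. Without KO_TAC 1 the second TAC difference was 0.42, and without KO_sham 4 it was 1.498. From highest to lowest, the group means with their SD over hearts were 16.02 ± 2.85 CPM in AAV_TAC, 11.6 ± 8.18 in KO_TAC, 9.97 ± 4.61 in FF_sham, 9.69 ± 2.01 in AAV_sham, 9.45 ± 2.44 in PBS_sham, 5.89 ± 4.19 in KO_sham, 5.47 ± 2.18 in FF_TAC and 2.68 ± 0.679 in PBS_TAC. Of these neighbours, only FF_TAC and PBS_TAC had hearts that did not overlap.

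Clock and Npas2 encode the partners of ARNTL. Npas2 (ENSMUSG00000026077, chr1:39193731-39363236, plus strand) was at 4.11, 5.70 and 5.29 CPM in PBS_sham and 1.81, 1.96 and 1.69 in PBS_TAC, then 3.68, 5.63, 3.16 and 3.09 in AAV_sham and 4.15, 8.63, 5.74 and 4.08 in AAV_TAC. As with Arntl, the 3 PBS_TAC hearts were the lowest of the cohort. The vector groups overlapped. Log2 differences were −1.47 (SE 0.31) for TAC after PBS, 0.54 (SE 0.26) for TAC after the vector, and 1.63 (SE 0.30) for AAV_TAC against PBS_TAC. Among the floxed hearts it was at 2.07 to 5.46 CPM in FF_sham hearts, 1.52 to 4.49 in KO_sham, 1.41 to 2.19 after TAC in FF mice and 8.53, 1.73, 2.72 and 2.56 in KO_TAC. The first KO_TAC heart was far above the other three. The edgeR differences were −0.92 (SE 0.46, adjusted p 0.477) for FF_TAC against FF_sham and 1.09 (SE 0.46, adjusted p 0.12) for KO_TAC against FF_TAC, the latter 0.34 without KO_TAC 1. Group means were 5.65 ± 2.13 CPM in AAV_TAC, 5.03 ± 0.826 in PBS_sham, 3.89 ± 1.19 in AAV_sham, 3.88 ± 3.13 in KO_TAC, 3.48 ± 1.43 in FF_sham, 2.88 ± 1.22 in KO_sham, 1.84 ± 0.322 in FF_TAC and 1.82 ± 0.133 in PBS_TAC, and no neighbours in that order were apart.

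Clock (ENSMUSG00000029238, chr5:76209868-76304792, minus strand) varied on a smaller scale. It was at 29.5, 36.9 and 34.3 CPM in PBS_sham and 23.7, 26.9 and 21.7 in PBS_TAC, with 32.7 to 37.0 in AAV_sham and 32.8 to 37.8 in AAV_TAC. PBS_TAC again lay below the other groups. The log2 difference was −0.48 (SE 0.12) for TAC after PBS and 0.55 (SE 0.11) for AAV_TAC against PBS_TAC. In FF hearts it was at 28.4, 28.6, 30.3 and 30.9 CPM after sham and 28.3, 28.0, 23.5 and 26.3 after TAC. These groups did not overlap, but the difference of −0.16 (SE 0.13, adjusted p 0.653) did not pass in edgeR. In KO hearts the range was 21.3 to 34.3 CPM after sham and 24.7 to 33.8 after TAC. Group means were 35.2 ± 2.52 CPM in AAV_TAC, 34.3 ± 1.88 in AAV_sham, 33.6 ± 3.77 in PBS_sham, 29.5 ± 1.22 in FF_sham, 29.1 ± 5.63 in KO_sham, 29.1 ± 3.89 in KO_TAC, 26.5 ± 2.16 in FF_TAC and 24.1 ± 2.65 in PBS_TAC, and all neighbours overlapped.

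The Per genes encode the repressors that bind CRY and return to the nucleus to stop ARNTL and CLOCK. Per1 (ENSMUSG00000020893, chr11:69095217-69109960, plus strand), which also responds to glucocorticoids and to cAMP, was at 85.8, 139 and 185 CPM in PBS_sham, 114, 101 and 119.6 in PBS_TAC, 150.4, 130.3, 123 and 128 in AAV_sham and 54.7, 61.4, 53.4 and 69.8 in AAV_TAC. The AAV_TAC hearts lay below all others of the cohort. PBS_sham and PBS_TAC overlapped. The log2 difference with TAC was −0.29 (SE 0.22) after PBS and −1.15 (SE 0.19) after the vector, and AAV_TAC against PBS_TAC gave −0.90 (SE 0.20). Without PBS_sham 3 the difference after PBS was −0.010. Levels in the floxed cohort were lower, at 38.2 to 66.0 CPM in FF_sham hearts, 25.3 to 71.7 in KO_sham, 37.3 to 74.2 after TAC in FF mice and 16.9 to 70.9 after TAC in KO mice. Nearly the whole floxed range was thus covered within KO_TAC alone. FF_TAC against FF_sham gave 0.031 (SE 0.37, adjusted p 0.976) and KO_TAC against KO_sham −0.08 (SE 0.37, adjusted p 0.892) in edgeR. Group means were 137 ± 49.6 CPM in PBS_sham, 133 ± 12.1 in AAV_sham, 112 ± 9.43 in PBS_TAC, 59.8 ± 7.52 in AAV_TAC, 53.4 ± 15.8 in FF_TAC, 52.2 ± 11.4 in FF_sham, 43.8 ± 20.0 in KO_sham and 41.3 ± 22.4 in KO_TAC, with hearts apart between AAV_sham and PBS_TAC and between PBS_TAC and AAV_TAC.

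Per2 (ENSMUSG00000055866, chr1:91415982-91459324, minus strand) was at 30.4, 37.0 and 74.5 CPM in PBS_sham, 42.4, 41.9 and 41.8 in PBS_TAC, 21.0, 14.2, 24.2 and 18.3 in AAV_sham and 9.14, 3.80, 7.06 and 10.1 in AAV_TAC. Vector hearts were below PBS hearts after either operation, and lowest after TAC. Its log2 difference was −1.29 (SE 0.31) for AAV_sham against PBS_sham and −0.79 without PBS_sham 3, the heart with 74.5 CPM and few cardiomyocyte transcripts. AAV_TAC against PBS_TAC, which does not use that heart, gave −2.47 (SE 0.33), a 5.55-fold lower level. TAC gave −1.36 (SE 0.31) after the vector and −0.17 (SE 0.33) after PBS, the latter 0.32 without PBS_sham 3. Among floxed hearts Per2 was at 15.0, 13.4, 6.03 and 14.4 CPM in FF_sham, 14.7, 15.3, 21.8 and 16.6 in FF_TAC, 8.56, 50.9, 14.6 and 11.3 in KO_sham and 12.8, 17.3, 7.67 and 17.2 in KO_TAC. The library labelled KO_sham 2 was far above all other floxed hearts, and the same library had the lowest Arntl of the study. The edgeR differences were 0.80 (SE 0.47, adjusted p 1) for KO_sham against FF_sham and −0.63 (SE 0.47, adjusted p 0.321) for KO_TAC against KO_sham. Without KO_sham 2 these were −0.094 and 0.25, so each direction rested on that library. Group means were 47.3 ± 23.8 CPM in PBS_sham, 42.0 ± 0.323 in PBS_TAC, 21.3 ± 19.9 in KO_sham, 19.4 ± 4.23 in AAV_sham, 17.1 ± 3.22 in FF_TAC, 13.7 ± 4.55 in KO_TAC, 12.2 ± 4.17 in FF_sham and 7.53 ± 2.80 in AAV_TAC, and all neighbours overlapped.

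Per3 (ENSMUSG00000028957, chr4:151003652-151044665, minus strand) was 1 of 2 members that passed a test in the floxed cohort. It was at 26.2, 53.2, 31.9 and 22.9 CPM in KO_sham and 10.0, 16.1, 14.1 and 25.9 in KO_TAC, with 26.9, 37.2, 17.3 and 25.1 in FF_sham and 37.2, 20.7, 28.4 and 38.0 in FF_TAC. KO_TAC was the lowest floxed group, though KO_TAC 4 reached into the KO_sham range. Per3 fell in KO_TAC against KO_sham by edgeR's test, −1.02 (SE 0.32, adjusted p 0.0313), to 0.493 of the level. The call was lost without KO_sham 2, where the difference was −0.72 and the adjusted p 0.105. It was also lost without KO_sham 3 or without KO_TAC 1, 2 or 3, with adjusted p from 0.0508 to 0.0887, and with the haemoglobin split as a term (−1.10, adjusted p 0.138). KO_TAC against FF_TAC gave −0.91 (SE 0.32, adjusted p 0.0693) and the interaction −1.24 (SE 0.45, adjusted p 0.251), neither past the threshold in edgeR. FF_TAC against FF_sham gave 0.22 (SE 0.32, adjusted p 0.787).

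In the AAV9 cohort Per3 was at 26.1, 19.8 and 78.6 CPM in PBS_sham, 41.6, 46.7 and 36.5 in PBS_TAC, 29.1, 24.4, 21.5 and 34.7 in AAV_sham and 20.2, 10.53, 17.8 and 19.9 in AAV_TAC. AAV_TAC was below AAV_sham and below PBS_TAC without overlap, with log2 differences of −0.68 (SE 0.36) and −1.28 (SE 0.38). PBS_TAC against PBS_sham gave −0.002 (SE 0.40), and 0.86 without PBS_sham 3. Over both cohorts the group means were 41.6 ± 5.10 CPM in PBS_TAC, 41.5 ± 32.3 in PBS_sham, 33.6 ± 13.6 in KO_sham, 31.1 ± 8.16 in FF_TAC, 27.4 ± 5.79 in AAV_sham, 26.6 ± 8.21 in FF_sham, 17.1 ± 4.52 in AAV_TAC and 16.6 ± 6.75 in KO_TAC, and all neighbours overlapped.

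Cry1 and Cry2 encode the cryptochromes, direct repressors of the loop. Their differences between groups were below 1 on the log2 scale in every comparison. Cry1 (ENSMUSG00000020038, chr10:85131700-85185064, minus strand) was at 10.1, 9.85 and 6.01 CPM in PBS_sham, 10.9, 12.1 and 13.5 in PBS_TAC, 8.11, 7.41, 8.71 and 7.69 in AAV_sham and 8.44, 9.21, 9.14 and 8.92 in AAV_TAC. PBS_TAC had the highest group mean of the study. TAC after PBS gave 0.50 (SE 0.17), and 0.29 without PBS_sham 3. TAC after the vector gave 0.16 (SE 0.15), and AAV_TAC against PBS_TAC −0.45 (SE 0.16). Floxed hearts had Cry1 at 8.19 to 9.34 CPM in FF_sham hearts, 6.12 to 12.6 in KO_sham, 7.83 to 10.8 after TAC in FF mice and 6.17 to 11.6 after TAC in KO mice. The largest of its 4 differences between pairs of groups there was −0.13 (SE 0.22, adjusted p 0.723), for KO_TAC against FF_TAC. Group means were 12.2 ± 1.31 CPM in PBS_TAC, 9.48 ± 1.24 in FF_TAC, 8.93 ± 0.348 in AAV_TAC, 8.84 ± 0.56 in FF_sham, 8.66 ± 2.30 in PBS_sham, 8.64 ± 2.44 in KO_TAC, 8.46 ± 2.85 in KO_sham and 7.98 ± 0.564 in AAV_sham. Only PBS_TAC and FF_TAC, the highest pair, were apart.

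Cry2 (ENSMUSG00000068742, chr2:92403646-92434043, minus strand) overlaps D930015M05Rik on the opposite strand over 295 exon bases, so its counts are uncertain to that extent. It was at 38.3, 37.9 and 26.7 CPM in PBS_sham, 47.3, 49.9 and 49.3 in PBS_TAC, 41.8, 36.6, 36.5 and 43.6 in AAV_sham and 32.3, 24.9, 32.7 and 35.1 in AAV_TAC. After TAC the PBS hearts were above their shams and the vector hearts below theirs, without overlap in either pair. The log2 differences were 0.51 (SE 0.15) and −0.34 (SE 0.13), and −0.64 (SE 0.14) for AAV_TAC against PBS_TAC. Without PBS_sham 3 the first of these was 0.36. The floxed groups ran over 37.4 to 44.6 CPM in FF_sham hearts, 29.01 to 65.5 in KO_sham, 37.5 to 50.4 after TAC in FF mice and 35.4 to 42.4 after TAC in KO mice. The top value again came from the library labelled KO_sham 2. The largest of the 4 floxed differences between pairs was −0.14 (SE 0.19, adjusted p 0.662), for KO_TAC against FF_TAC. Group means were 48.8 ± 1.36 CPM in PBS_TAC, 42.8 ± 6.29 in FF_TAC, 42.3 ± 3.39 in FF_sham, 42.2 ± 16.05 in KO_sham, 39.6 ± 3.65 in AAV_sham, 38.9 ± 3.46 in KO_TAC, 34.3 ± 6.601 in PBS_sham and 31.2 ± 4.39 in AAV_TAC, and all neighbours overlapped.

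Ciart (ENSMUSG00000038550, chr3:95878503-95882251, minus strand), the repressor with 3 E-boxes in the sequence above, was at 16.3, 10.7 and 18.3 CPM in PBS_sham, 33.0, 33.3 and 35.5 in PBS_TAC, 16.6, 12.8, 18.5 and 18.9 in AAV_sham and 11.4, 7.94, 8.64 and 15.9 in AAV_TAC. The PBS_TAC hearts were close to each other and above all other 27 hearts. Log2 differences were 1.17 (SE 0.25) for TAC after PBS, −0.60 (SE 0.22) for TAC after the vector and −1.63 (SE 0.23) for AAV_TAC against PBS_TAC, a 3.09-fold lower level. In FF hearts Ciart was at 12.8, 10.8, 9.33 and 10.8 CPM after sham and 15.9, 12.95, 17.2 and 19.6 after TAC. All 4 FF_TAC hearts were above all 4 FF_sham hearts, yet the difference of 0.59 (SE 0.40, adjusted p 0.572) did not pass in edgeR. In KO hearts it was at 9.58, 16.6, 20.0 and 7.25 CPM after sham and 2.99, 17.9, 14.3 and 15.4 after TAC, a difference of −0.083 (SE 0.40, adjusted p 0.894). KO_TAC 1 had the lowest Ciart of the 30 hearts, and the highest Arntl. Group means were 33.9 ± 1.35 CPM in PBS_TAC, 16.7 ± 2.80 in AAV_sham, 16.4 ± 2.76 in FF_TAC, 15.1 ± 3.94 in PBS_sham, 13.4 ± 5.94 in KO_sham, 12.7 ± 6.62 in KO_TAC, 11.0 ± 3.60 in AAV_TAC and 10.9 ± 1.41 in FF_sham. Only PBS_TAC and AAV_sham were apart.

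**Figure D2:**
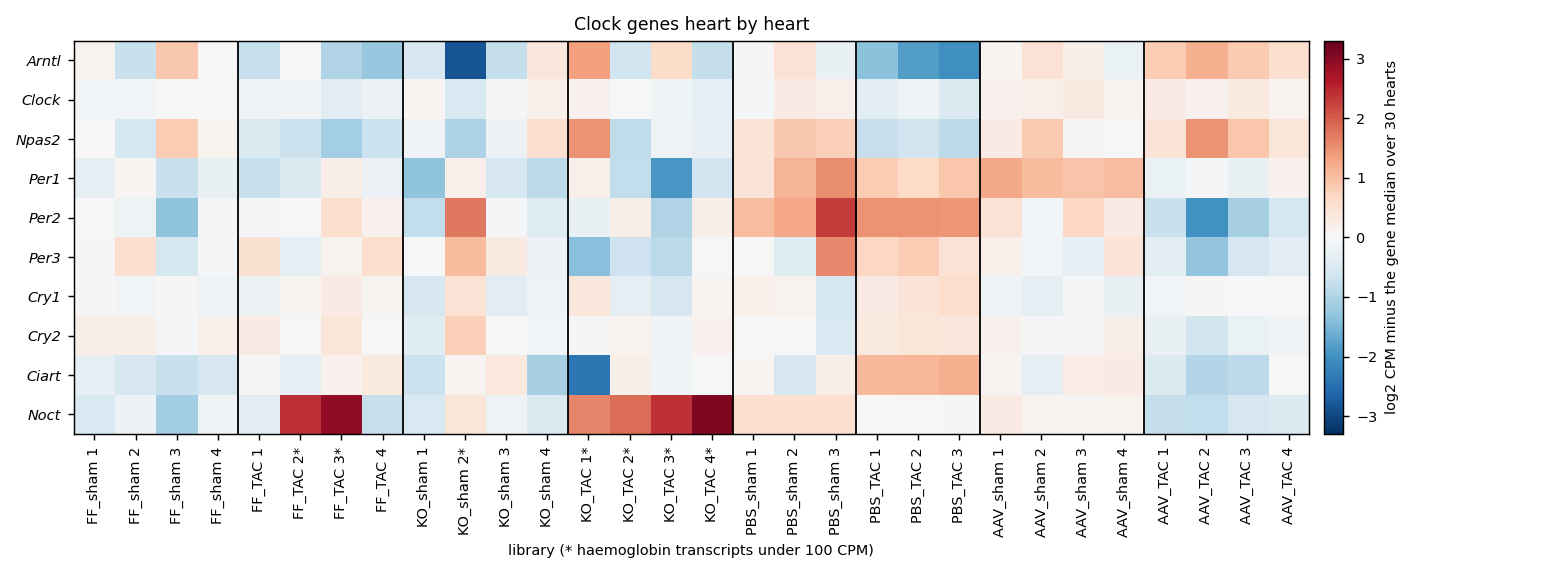
Log2 CPM of each clock gene in each heart, minus the median of that gene over the 30 hearts (colour scale in log2 units, red above and blue below the median); columns are hearts by group, rows are genes, and asterisks mark the 7 hearts with haemoglobin transcripts under 100 CPM. The columns of PBS_TAC 1 to 3 and KO_sham 2 have blue Arntl with red Per2 and Per3, which other hearts with blue Arntl do not all share, and KO_TAC 1 shows the opposite colours for Arntl, Npas2, Per3 and Ciart.

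Noct (ENSMUSG00000023087, chr3:51224447-51251644, plus strand) encodes nocturnin, a rhythmic enzyme related to mRNA deadenylases. In the floxed cohort it was at 28.9, 35.8, 18.5 and 37.3 CPM in FF_sham, 32.1, 218, 308 and 24.2 in FF_TAC, 28.9, 53.9, 36.1 and 29.4 in KO_sham and 124, 147, 216 and 347 in KO_TAC. All 4 KO_TAC hearts and FF_TAC 2 and 3 were far above the rest. FF_TAC 2 and 3 are the FF hearts with Cpt1a near KO levels, so the FF_TAC difference and the interaction rest on the labels. Noct rose in KO_TAC against KO_sham by edgeR's test, 2.49 (SE 0.65, adjusted p 0.0144), a 5.62-fold higher level, and stayed called in each of the 8 fits that left out 1 heart. FF_TAC against FF_sham gave 2.27 (SE 0.64, adjusted p 0.328) and the interaction 0.22 (SE 0.87, adjusted p 0.928). KO_TAC against FF_TAC gave 0.52 (SE 0.61, adjusted p 0.594).

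The high Noct hearts were hearts with few haemoglobin transcripts. Noct was at 53.9 to 347 CPM in the 7 libraries below 100 CPM of haemoglobin and at 18.5 to 37.3 CPM in the other 9 floxed libraries. The 14 early response genes fixed as a list (Fos, Jun, Egr1, Atf3 and the like, which rise within an hour of stress in many tissues) summed to 1993 to 5620 CPM in the same 7 and to 204 to 307 CPM in the other 9. With the haemoglobin split as a term, the KO_TAC difference of Noct was 0.66 (adjusted p 0.55 in edgeR). With the fit restricted to hearts low in haemoglobin, 4 KO_TAC and 1 KO_sham, it was 1.94 (adjusted p 0.339), where the single KO_sham heart is assumed to vary like the others. In FF hearts, the 2 haemoglobin-high TAC libraries differed from FF_sham by −0.094. The part of this split in the Noct result cannot be told apart from KO_TAC itself, which lies wholly on its low side.

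In the AAV9 cohort, where all hearts had at least 293.9 CPM of haemoglobin, Noct spread little. It was at 59.7, 59.3 and 59.4 CPM in PBS_sham, 41.3, 40.2 and 39.5 in PBS_TAC, 49.4, 43.9, 43.6 and 44.2 in AAV_sham and 23.7, 23.1, 27.6 and 29.99 in AAV_TAC. TAC hearts were below sham hearts under either injection, and vector hearts below PBS hearts after either operation, with no overlap in any of the 4 pairs. The log2 differences were −0.56 (SE 0.11) for TAC after PBS, −0.79 (SE 0.10) for TAC after the vector, −0.39 (SE 0.10) between the sham groups and −0.63 (SE 0.10) between the TAC groups. The KO_TAC hearts, in contrast, had been above their shams; this contrast between cohorts was not tested. Group means over both cohorts were 208 ± 100.3 CPM in KO_TAC, 146 ± 140.4 in FF_TAC, 59.4 ± 0.227 in PBS_sham, 45.2 ± 2.75 in AAV_sham, 40.3 ± 0.892 in PBS_TAC, 37.1 ± 11.7 in KO_sham, 30.1 ± 8.57 in FF_sham and 26.1 ± 3.26 in AAV_TAC. Hearts were apart between PBS_sham and AAV_sham and between AAV_sham and PBS_TAC.

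**Figure D3:**
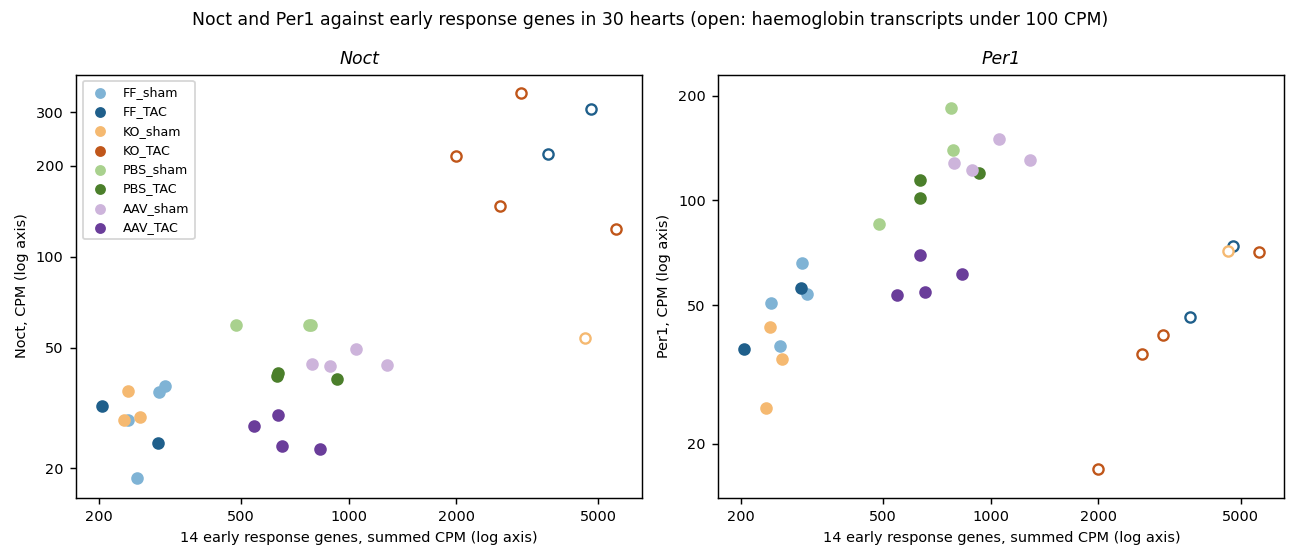
Noct (left) and Per1 (right) in CPM against the summed CPM of 14 early response genes in 30 hearts, both axes logarithmic; colours give the groups and open points are hearts with haemoglobin transcripts under 100 CPM. The 7 open points lie at 1993 CPM or more on the x axis, with Noct at 53.9 to 347 CPM, while their Per1, at 16.9 to 74.2 CPM, is inside or near the range of the other floxed hearts.

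Set against all genes, the clock genes took these places; comparisons within a cohort share libraries, so their counts are not independent. In PBS_TAC against PBS_sham, 1 of 10 members was called at an adjusted p under 0.05 in edgeR, with 0.0318% of 15745 genes called, and 7 of 10 did not overlap, against 14.7% of all genes. In AAV_TAC against AAV_sham, 1 member was called, with 0.00635% of all genes, and 6 did not overlap, against 10.7%. In AAV_TAC against PBS_TAC, which shares their libraries, 3 members were called (Arntl, Per2 and Ciart) of 6 genes in all (0.0381%), and all 10 did not overlap, against 8.44% of all genes. Leaving out 1 heart at a time, in 7 fits, gave 4 members called without AAV_TAC 4, 2 without AAV_TAC 2 and 1 without any of the other 5. Between the sham groups no member was called (0.0127% of all genes), 2 had an unadjusted p under 0.05 (20.7% of all genes) and 2 did not overlap (10.8%). DESeq2 called 2 members there and voom 0, with 373 and 70 of all genes called. The interaction had 1 member called, Arntl, the single gene called there (0.00635%); the call was lost in 10 of 14 fits that left out 1 heart, with Myl7 as a covariate and with all 30 libraries in one fit. The first 2 contrasts chose the list, and the others of this cohort use the same libraries, so nothing is read from any of these shares.

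In the floxed cohort, FF_TAC against FF_sham had no member called (0% of 15596 genes). Noct alone had an unadjusted p under 0.05 (11.1% of all genes), and Clock and Ciart did not overlap (6.02% of all genes). DESeq2 and voom called none, with 168 and 0 of all genes called. KO_TAC against KO_sham had 2 members called, with 25.8% of all genes called, so the members' share was near that of all genes. With the haemoglobin split as a term, 273 genes in all were called there, against 4031 without it. Noct alone did not overlap there (23% of all genes). KO_sham against FF_sham had no member called (0%), none with an unadjusted p under 0.05 (5.22%) and none without overlap (6.75%). No member was called there by DESeq2 or voom, with 3 and 30 of all genes called. For KO_TAC against FF_TAC edgeR called no member, with 14.3% of all genes called. There Npas2 and Per3 had an unadjusted p under 0.05 (31.1% of all genes), and none was without overlap (13.5%). DESeq2 called Per3, with 3058 of all 15596 genes called, and voom called Per1, Per3 and Noct, with 6002 called. The floxed interaction had no member called by edgeR (0.0449% of all genes) and 2, Arntl and Per3, with an unadjusted p under 0.05 (13.1%). DESeq2 called none there, with 377 of all genes called, and voom called Per3, with 2930 called.

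KO_TAC, the group behind both floxed calls, also differed in summed markers of cell types, without overlap for the fibroblast markers only. Its 5 fibroblast markers, none of them at 3 counts or fewer in any heart, summed to 1265 to 1449 CPM, against 615 to 956 CPM in the other floxed groups. Its 5 endothelial markers summed to 448 to 623 CPM, against 608 to 878, a small overlap. Its 5 atrial markers summed to 4499 to 17143 CPM, against 16.1 to 5235, which overlapped too. Of these 5, Nppa reached the highest level in a single heart, 8704 CPM, and Myl4 the next, 4213 CPM. Of the atrial list, Bmp10 was at 3 counts or fewer in 23 of the 30 hearts, Sln in 16 and Myl7 in 8. The part of these shifts in the Per3 and Noct results was not tested.

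**Figure D4:**
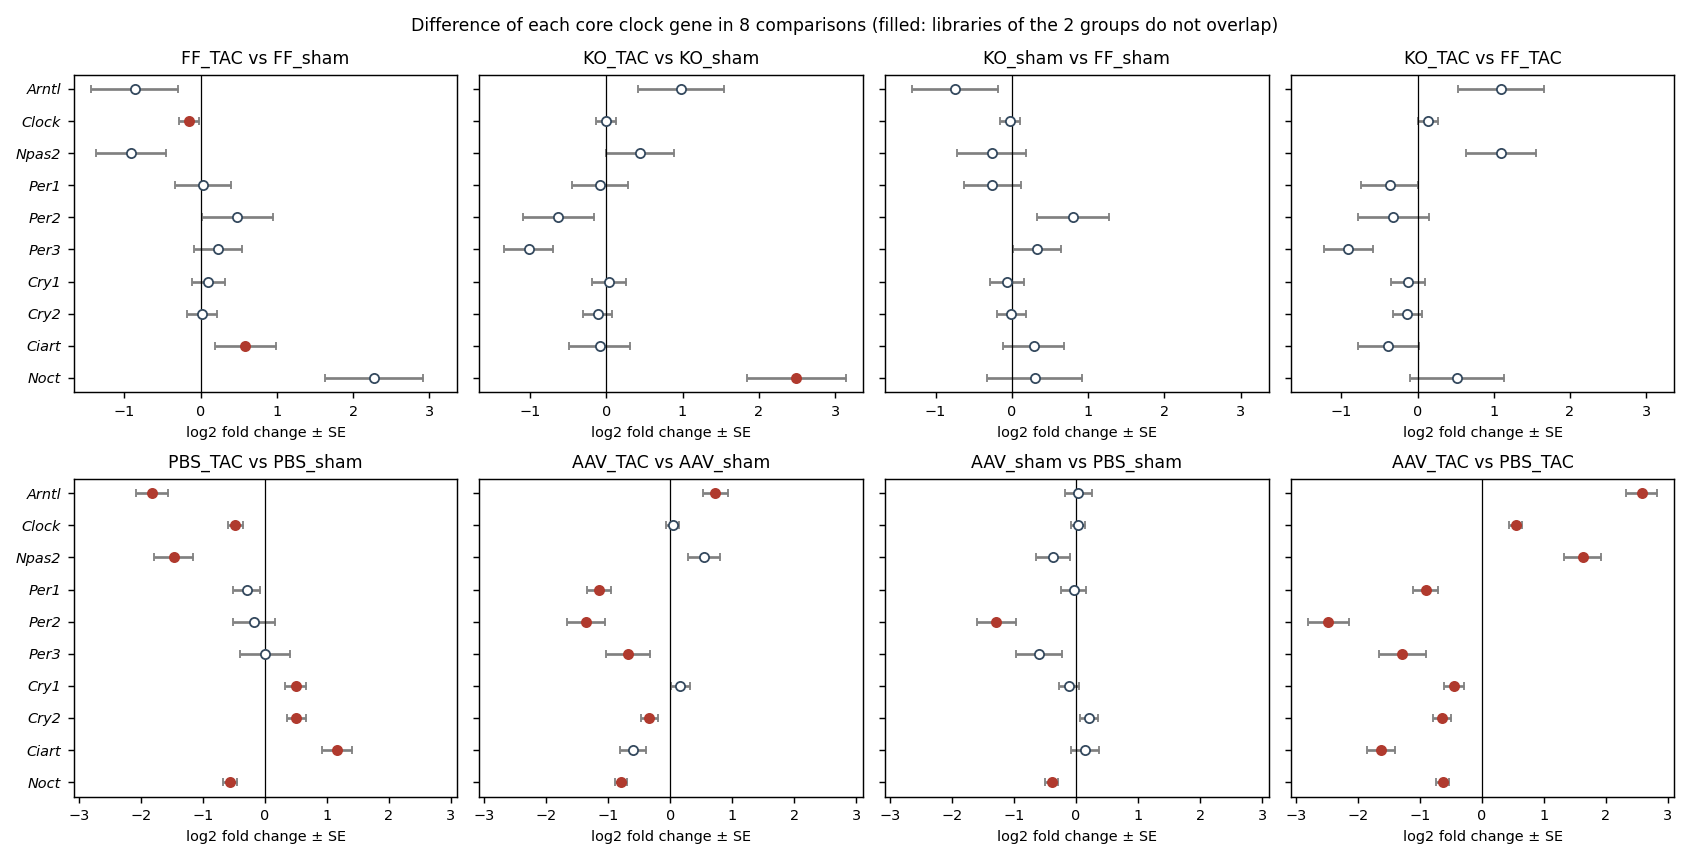
Log2 fold change of each clock gene with its SE (x axis, error bars) in 8 comparisons between pairs of groups (panels); filled points mark genes whose hearts did not overlap between the groups. In AAV_TAC against PBS_TAC all 10 points are filled, with Arntl at 2.58 and Per2 at −2.47, and the upper panels, from the floxed cohort, have wider error bars for Arntl (SE up to 0.57 against up to 0.25 in the lower panels).

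The spread within groups was measured in each cohort as well. The biological coefficient of variation that edgeR estimated within groups was 54.5% for Arntl in the floxed cohort, above that of 94.6% of the genes tested, and 20.4% in the AAV9 cohort, near the median of 20.3%. For Noct it was 58.8% in the floxed and 11.5% in the AAV9 cohort, and for Npas2 43.5% and 25.7%. Per3 had 31.5% and 34.5%. Clock was among the steadier genes in both, at 14.5% and 11.8%. A test of this difference between cohorts was not run.

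A further list of 22 clock regulators and outputs was read beside the 10 genes, and 21 of them passed the filter. In KO_TAC against KO_sham edgeR called 6 of 21, a share near the 25.8% of all genes called, 2 higher and 4 lower, with a median log2 difference of −0.078 against 0.020 over all genes. Of the 4 called genes of largest change, 3 encode activators that bind D-boxes: Hlf was lower by −1.34 (SE 0.41, adjusted p 0.0264), Dbp by −1.01 (SE 0.30, adjusted p 0.0243) and Tef by −0.79 (SE 0.24, adjusted p 0.0272). Nfil3, the repressor that competes for the same D-boxes, was higher by 1.14 (SE 0.33, adjusted p 0.023). Dbp was at 97.9, 138, 115 and 83.4 CPM in KO_sham and 25.3, 57.8, 48.3 and 84.5 in KO_TAC, a small overlap. Nr1d2, a REV-ERB receptor, was also called lower and Csnk1d, a kinase of PER proteins, higher. With the haemoglobin split as a term, 273 genes in all were called in this comparison, against 4031 without it. The part of the split in these regulator calls was not tested.

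For KO_TAC against FF_TAC edgeR called 4 of the 21 (14.3% of all genes): Dbp at −1.05 (SE 0.30, adjusted p 0.0299), Tef at −0.83 (SE 0.24, adjusted p 0.0322) and Gsk3b at −0.26 (SE 0.08, adjusted p 0.0366) were lower, and Rora, an activator of Arntl, was higher at 0.38 (SE 0.12, adjusted p 0.0475). In the other 8 comparisons edgeR called none of the 21, with unadjusted p under 0.05 for 2 in FF_TAC against FF_sham, 1 in KO_sham against FF_sham, 6 in the floxed interaction, 5 in PBS_TAC against PBS_sham, 4 in AAV_TAC against AAV_sham, 2 between the AAV9 cohort's sham groups, 8 between its TAC groups and 4 in its interaction. DESeq2 called none in the first 3 of these, then 2, 0, 0, 2 and 2, and voom called 0, 0, 6, 5, 2, 0, 5 and 2. In the same order, 11.1%, 5.22%, 13.1%, 18.5%, 7.05%, 20.7%, 3.19% and 6.95% of all genes had an unadjusted p under 0.05 in edgeR. Over all genes DESeq2 called 168, 3, 377, 370, 117, 373, 35 and 16 in that order. Voom called 0, 30, 2930, 252, 367, 70, 97 and 13 of all genes. Between AAV_TAC and PBS_TAC, Dbp gave −1.28 (SE 0.21, adjusted p 0.06) and Tef −0.85 (SE 0.21, adjusted p 0.553) in edgeR; both are uncalled and were picked here after their values were seen. Dbp was at 141, 165 and 141 CPM in PBS_TAC and 58.9, 41.3, 62.9 and 82.5 in AAV_TAC.

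Per1 belongs to the genes that glucocorticoids induce, and 8 others of that kind were listed. In KO_TAC against KO_sham edgeR called 4 of the 8, all higher (14.3% of all genes were called higher): Cdkn1a by 2.76 (SE 0.66, adjusted p 0.00975), Errfi1 by 1.84 (SE 0.59, adjusted p 0.0327), Sgk1 by 1.10 (SE 0.35, adjusted p 0.033) and Fkbp5 by 1.06 (SE 0.27, adjusted p 0.0124). Per1 itself gave −0.080 there. The 8 summed to 1063 to 1408 CPM in KO_TAC and 1079 CPM in KO_sham 2, against 504 to 582 CPM in the other KO_sham hearts, and to 1132 and 1309 CPM in FF_TAC 2 and 3, against 679 and 592 CPM in FF_TAC 1 and 4. The high hearts of these groups are those low in haemoglobin, though FF_sham 4, with haemoglobin above 100 CPM, was at 1339 CPM; the part of the split in this list's calls was not tested. Fkbp5 was the single call of the 8 in KO_TAC against FF_TAC, where edgeR called 14.3% of all genes. None of the 14 early response genes was called by edgeR in any of the 10 comparisons, although 12 had an unadjusted p under 0.05 in FF_TAC against FF_sham and DESeq2 called 6 there. Over all 15596 genes, 11.1% had an unadjusted p under 0.05 in that comparison and DESeq2 called 168. In KO_TAC against KO_sham none of the 14 had an unadjusted p under 0.05, against 40.6% of all genes. DESeq2 called none of the 14 there, with 4812 genes called in all, and voom called 11, with 8336 in all. In AAV_TAC against AAV_sham, where Per1 gave −1.15, 13 of these 14 were lower and 1 higher (median log2 difference −0.93). Of the 8 glucocorticoid genes 6 were lower and 2 higher there (median −0.28, against 0.00048 over all genes). In AAV_TAC against PBS_TAC Per1 gave −0.90. There 9 of the 14 were lower and 5 higher, and 6 of the 8 lower and 2 higher. Whether Per1 moved with either list was not tested.

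Differences between hearts of the same group were examined next, since they do not use the contrasts that chose the list. Each level was taken as log2 CPM minus the mean of its group, and Arntl was correlated with each of the other 9 genes, in 18 relations over both cohorts, by two-sided permutation tests within groups (100000 resamples, Benjamini-Hochberg adjustment over the 18). Over the 16 floxed hearts 6 of 9 relations passed. Arntl rose with its partners Npas2 (r 0.84, permutation p 0.00034, adjusted p 0.00306; rho 0.78, permutation p 0.00135, adjusted p 0.0121) and Clock (r 0.81, permutation p 0.00726, adjusted p 0.0261; rho 0.67, permutation p 0.0217, adjusted p 0.0488). It ran opposite to Per3 (r −0.91, permutation p 4e-05, adjusted p 0.00072; rho −0.90, permutation p 0.00011, adjusted p 0.00198) and to Per2 (r −0.78, permutation p 0.0106, adjusted p 0.0319; rho −0.77, permutation p 0.00665, adjusted p 0.0253). It also ran opposite to Cry2 (r −0.74, permutation p 0.0135, adjusted p 0.0346; rho −0.70, permutation p 0.00703, adjusted p 0.0253) and Ciart (r −0.69, permutation p 0.00539, adjusted p 0.0243; rho −0.65, permutation p 0.00934, adjusted p 0.028). Relations with Per1 (r −0.37), Cry1 (r −0.26) and Noct (r −0.18) did not pass, with adjusted p 0.43, 0.594 and 0.552 in the same permutation tests.

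Several of these relations rested on few hearts. The number that passed fell to 2 without KO_TAC 4, to 3 without KO_sham 2, KO_sham 3 or KO_TAC 2, and to 4 without FF_sham 3, KO_sham 4 or KO_TAC 1. Without the libraries labelled KO_sham 4 and KO_sham 2, which lie farthest from the median Arntl deviation, Pearson's r was −0.90 for Per3, 0.82 for Npas2 and −0.72 for Ciart, which still passed. It was 0.59 for Clock, −0.62 for Per2 and −0.55 for Cry2, which did not. Within the haemoglobin-high floxed libraries (9 hearts, exact permutation test) r was 0.98 for Npas2 and −0.92 for Per3, with adjusted p 0.0625 and 0.0938. Within the haemoglobin-low ones (6 hearts, exact permutation test) r was 0.85 for Npas2, −0.90 for Per3 and −0.83 for Ciart, each with p 0.0417 over 48 arrangements and adjusted p 0.125. None passed within either side of the split. So few hearts limit what p-values can show, and r for Npas2 and Per3 was close on both sides to that over all 16.

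Over the 14 hearts of the AAV9 cohort 2 of 9 relations passed. Arntl ran opposite to Ciart (r −0.79, permutation p 0.0009, adjusted p 0.0054; rho −0.78, permutation p 0.00236, adjusted p 0.0142) and to Per3 (r −0.67, permutation p 0.0202, adjusted p 0.0455; rho −0.71, permutation p 0.0163, adjusted p 0.042). Npas2 followed Arntl with r 0.62, permutation p 0.0262, adjusted p 0.0524; rho 0.54, permutation p 0.056, adjusted p 0.112, past neither threshold. Without PBS_TAC 1 and PBS_sham 2, r was −0.82 for Ciart, which still passed, and −0.66 for Per3, with adjusted p 0.0932. With 1 heart left out, 1 relation passed without PBS_sham 2, AAV_sham 1, 2 or 4 or any AAV_TAC heart, and 3 passed without PBS_sham 3, PBS_TAC 1 or 2 or AAV_sham 3. Per2 had r −0.58 and Clock r 0.26, with adjusted p 0.106 and 0.594 in the permutation tests. Neither passed. Whether the relations differ between the cohorts was not tested.

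**Figure D5:**
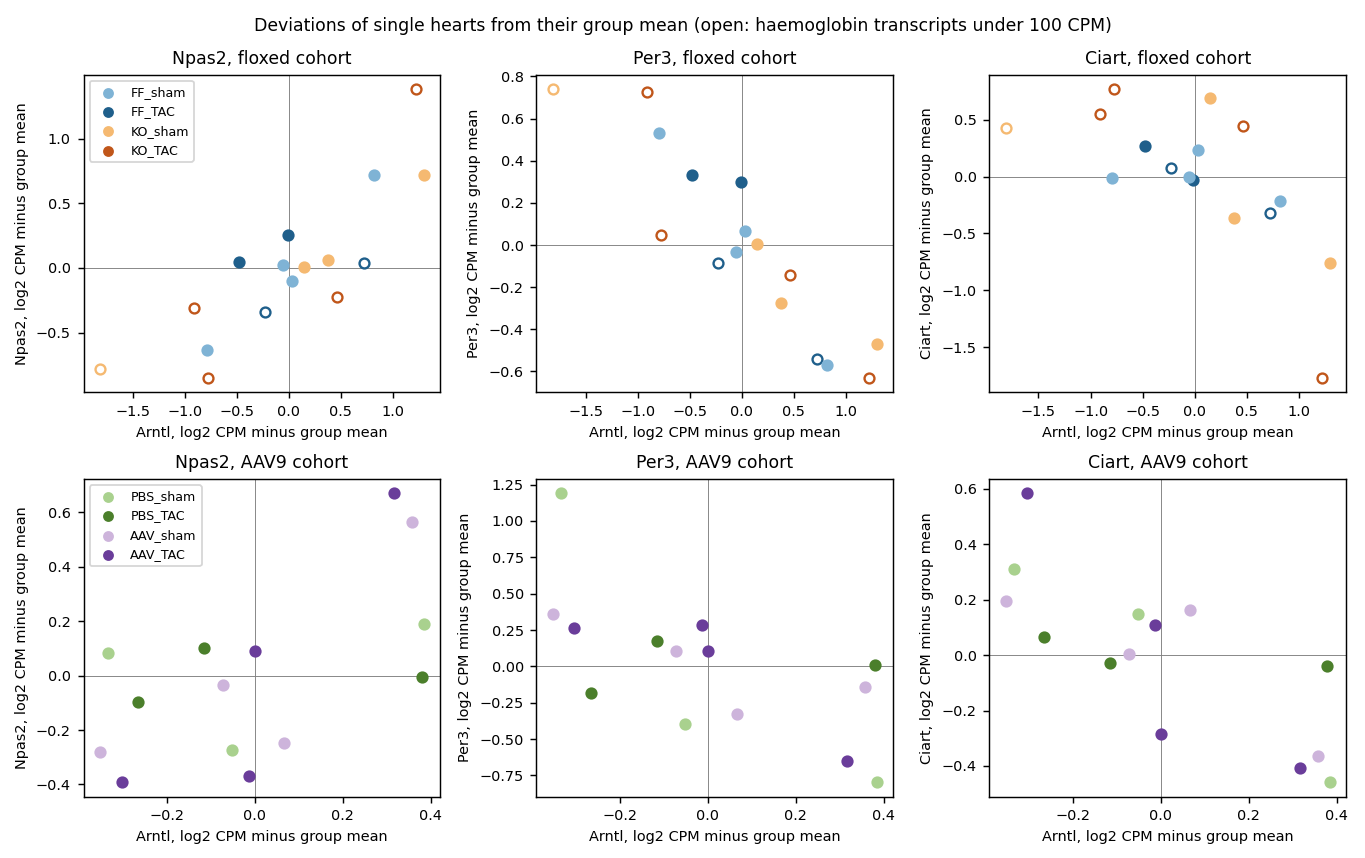
Deviation of Npas2, Per3 and Ciart (y axes) against that of Arntl (x axis) from the mean of their group, in log2 CPM; the upper row holds the 16 floxed hearts and the lower row the 14 AAV9 hearts, 1 point per heart, open where haemoglobin transcripts were under 100 CPM. Npas2 climbs with Arntl in the floxed cohort (r 0.84) and Per3 descends (r −0.91), while Ciart descends in both (r −0.69 and −0.79).

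The genes most like Arntl were looked for over all 30 hearts in the same group-centred values, among 10535 genes (those with a mean of at least 5 CPM, and the members). This is a description over hearts that share groups, cohorts and depth. Npas2, ranked as a member although its mean of 3.57 CPM is below 5 CPM, had the highest r, 0.80. Clock had the third highest, 0.70. In the AAV9 cohort alone r was 0.62 for Npas2 and 0.26 for Clock, against 0.84 and 0.81 in the floxed cohort. The 5 highest genes outside the list were Spon2 (0.73), Cerk (0.69), Spryd3 (0.68), Col5a3 (0.67) and Snx24 (0.65). Within the AAV9 cohort alone these had r 0.27, 0.47, 0.49, 0.024 and 0.28, against 0.72 to 0.78 in the floxed cohort. At the other end stood Tef with the lowest r, −0.84, then Dbp (−0.79), Hdac4 (−0.75), Tspan4 (−0.72) and Cys1 (−0.72), of which Hdac4 and Cys1 had r −0.30 and −0.17 in the AAV9 cohort alone. Among the members, Per3 ranked 4 from the bottom of the 10535 (−0.75), Per2 6 (−0.72), Ciart 11 (−0.70) and Cry2 22 (−0.63). Per1 (−0.34), Noct (−0.18) and Cry1 (−0.18) were farther from that end. In the AAV9 cohort alone r was −0.67 for Per3, −0.58 for Per2, −0.79 for Ciart and −0.19 for Cry2. For Per1, Noct and Cry1 it was −0.19, −0.33 and 0.22.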

How the data were processed

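Per the labels' protocols, poly(A) RNA was made into libraries with a directional kit and sequenced in pairs. Per the submitters' processing notes, HISAT2 2.1.0, featureCounts of Subread 1.5.1 and GRCm38 were used; the strand setting and the annotation release are not given in the sources used here. The authors deposited whole-number counts per gene for 30 libraries, with no normalization. Of 55487 gene IDs 55141 matched a symbol in the reference table; the others held 0.0192% of the counts.

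Each cohort was fitted apart, as 4 groups, in R 4.3.3 by edgeR's quasi-likelihood test (edgeR 4.0.16; TMM scaling, the filterByExpr filter), leaving 15596 genes in the floxed and 15745 in the AAV9 cohort. P-values were adjusted over all genes by the Benjamini-Hochberg method (threshold 0.05). Relations used log2 CPM with a prior count of 2. Scripts were tested on simulated data. The members, the gene lists and the alternatives were chosen with earlier results of these data known. Named genes are all 10 members, up to 4 called regulators per comparison, the called glucocorticoid genes, and the 5 genes most and the 5 least like Arntl. Alternatives were DESeq2 1.42.0, voom of limma 3.58.1 with sample quality weights, RLE scaling, other filters, other sets of libraries, the haemoglobin split, Myl7 as a covariate, the replicate number as a block, and leaving out each library. Total counts of 14839758 to 22070373 per library set the counting precision; Arntl had as few as 20 counts.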

Additional observations from a re-analysis of the deposited data

Results flagged for a closer look

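In 4 of 60 sets of 1 gene and 1 group of 4 hearts, a single heart stood apart from the other three by more than Dixon's 95% limit; chance flags about 1 in 20. Npas2 was at 8.53 CPM in KO_TAC 1, the highest of its group. Per2 was at 6.03 CPM in FF_sham 3, the lowest of its group, and at 50.9 CPM in the library labelled KO_sham 2, the highest of its group. Noct was at 49.4 CPM in AAV_sham 1, the highest of its group.

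Arntl had TAC effects of opposite sign after PBS and after the vector, with a difference between them of 2.54 on the log2 scale. The earlier choice of the list used these libraries, so this value is a description. For Cry2 the hearts after TAC were all above their shams after PBS and all below them after the vector, with a difference between the effects of −0.85; edgeR's test of that difference did not call it.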

How the results depend on the processing

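Floxed results of single members were followed under each alternative only where the main difference exceeded its SE, which held for 22. Over these, 403 values kept their direction and side of the threshold, 10 lost the call, 5 gained one and 5 changed sign. Differences no larger than their SE were left out. Their calls, such as Per1 and Noct by voom in KO_TAC against FF_TAC, are not counted. In the AAV9 cohort 836 values stayed within 1 spread of the main value (the SD of log2 CPM within the groups compared) and 19 did not. Calls lost or gained there were not counted. Per2 changed sign to −0.039 in FF_TAC against FF_sham with a haemoglobin term, to 0.25 in KO_TAC against KO_sham without KO_sham 2, and in KO_sham against FF_sham to −0.085 among haemoglobin-high libraries and −0.094 without KO_sham 2. Noct changed sign to −0.094 in FF_TAC against FF_sham among haemoglobin-high libraries. The cause was not tested.

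Members called in KO_TAC against KO_sham (2) were 1 with only those groups fitted, and 0 with a haemoglobin term or among haemoglobin-low libraries. In KO_TAC against FF_TAC (0) DESeq2 called 1 and voom 3 (3058 and 6002 genes in all). In the floxed interaction (0) voom called 1 (2930 genes in all). In PBS_TAC against PBS_sham (1) DESeq2 and voom each called 5 and no filter 3 (370, 252 and 112 genes in all). There 0 members were called with only those groups, with Myl7 as covariate or with all 30 libraries in one fit. In AAV_TAC against AAV_sham (1) DESeq2 called 3, voom 4, no filter 3 and the fit of only those groups 3. These settings called 117, 367, 29 and 143 genes in all. With Myl7 or with all 30 libraries 0 members were called there. In AAV_sham against PBS_sham (0) DESeq2 called 2 and no filter 1 (373 and 182 genes in all). In AAV_TAC against PBS_TAC (3) DESeq2 called 8, voom 9, the fit of only those groups 6, and all 30 libraries 0. These settings called 35, 97, 38 and 0 genes in all. In the AAV9 interaction (1) DESeq2 called 3, voom 2 and no filter 2 (16, 13 and 5 genes in all), and 0 were called with Myl7 or with all 30 libraries. Of the relations with Arntl, the floxed 6 were 3 without the 2 farthest libraries and 0 within either side of the haemoglobin split, and the AAV9 2 were 1 without the 2 farthest. The cause was not tested.

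Leaving out 1 library at a time gave 0 to 7 members called in PBS_TAC against PBS_sham (7 without PBS_sham 1, 3 without PBS_sham 3, 0 without any of the other 4), 0 to 1 in AAV_TAC against AAV_sham (1 only without AAV_sham 2 or AAV_TAC 4), 0 to 2 in AAV_sham against PBS_sham (2 without PBS_sham 1), 1 to 4 in AAV_TAC against PBS_TAC, 0 to 1 in the AAV9 interaction (1 only without PBS_sham 3, PBS_TAC 1, AAV_sham 2 or AAV_TAC 4), 1 to 2 in KO_TAC against KO_sham, 0 to 1 in KO_TAC against FF_TAC (1 without FF_TAC 2 or KO_TAC 4) and 0 in the other 3. The Per2 difference ran from −0.90 to 0.25 in KO_TAC against KO_sham and from −0.094 to 1.06 in KO_sham against FF_sham. Relations that passed numbered 2 to 6 in the floxed and 1 to 3 in the AAV9 cohort.

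Samples were not treated as paired by replicate number. Correlations of same-numbered hearts ran from −0.387 to 0.464 in the floxed cohort (8 of 24 over 0.1). In the AAV9 cohort they ran from −0.404 to 0.418 (7 of 19). Without the same values for hearts of different number, these cannot decide whether the numbers pair hearts. With the replicate block, members called were 0 in AAV_TAC against AAV_sham and 4 in AAV_TAC against PBS_TAC, and relations that passed were 4 in the floxed and 0 in the AAV9 cohort.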
